A study of Homo sapiens with 4 samples.

Results

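The mRNAs of the RBM proteins, a group named for an RNA-binding motif, were examined for enrichment by an antibody against N7-methylguanosine (m7G) in U2OS cells, an established human osteosarcoma line. Members were the protein-coding genes whose symbol is RBM followed by a digit, together with RBMX, leaving out RBM15. This gave 37 genes of 20056 annotated protein-coding genes. A member without a row in a peak table was counted as having no peak. The cells received no treatment. Poly(A) RNA was isolated from whole cells, and 2 IP (immunoprecipitated) and 2 input libraries were made. The values are the authors' peaks, deposited separately for each IP replicate. Each peak has a position, a fold of IP over input, which is called its enrichment here, and the authors' own p-value. The members held 12 of the 4326 peaks of IP replicate 1 and 16 of the 4862 peaks of IP replicate 2.

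RBM genes are grouped by name and not by descent. Their proteins carry RNA recognition motifs, folds that grip short stretches of single-stranded RNA, and many work in the spliceosome, in nuclear RNA decay, or in the nucleolus where ribosomes are assembled. N7-methylguanosine is the base of the mRNA cap and has also been mapped inside mRNA, so the distance of a peak from the gene start is given with its fold. The tables hold no read counts and no expression level. The depth behind a peak is therefore unknown, and a missing peak cannot be told from a gene that is not expressed. The libraries are bulk RNA, so a modified mRNA present in few cells and a low level in all cells cannot be told apart. Whether the 2 replicates were separate cultures is not stated in the labels, so the spread between replicates may be technical only. Of 6 markers of bone-derived mesenchymal cells, COL1A1, VIM and SPARC had peaks in both tables, while COL1A2, RUNX2 and ALPL had none. Of 8 markers of blood, liver, epithelium and neurons, SYP alone had a peak, in replicate 2 only.

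The annotated start sites of 4 members lay under or just before a peak, and their sequences are shown because the cap sits at that end of the mRNA. Each runs from 60 bases before to 30 bases from the RefSeq start (GRCh38.p14), on the strand of the gene, and capitals mark the bases covered by a peak of either replicate. The windows are chr19:35628976-35629065 (plus strand) for RBM42, chr5:146203545-146203634 (plus) for RBM27, chr11:66638643-66638732 (plus) for RBM4 and chr20:35664871-35664960 (minus) for RBM12.
RBM42: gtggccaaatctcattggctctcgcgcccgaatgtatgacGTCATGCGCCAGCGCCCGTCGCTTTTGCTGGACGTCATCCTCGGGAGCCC
RBM27: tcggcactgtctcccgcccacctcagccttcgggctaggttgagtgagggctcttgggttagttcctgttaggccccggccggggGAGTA
RBM4: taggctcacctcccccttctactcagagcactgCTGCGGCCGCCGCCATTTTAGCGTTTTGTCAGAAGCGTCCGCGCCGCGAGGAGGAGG
RBM12: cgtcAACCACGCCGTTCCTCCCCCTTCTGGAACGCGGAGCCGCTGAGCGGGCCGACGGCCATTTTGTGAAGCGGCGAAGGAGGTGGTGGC

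The peaks of RBM42, RBM4 and RBM12 began 20, 27 and 56 nt upstream of the annotated start and ran across it. The RBM27 peak began inside the gene, so that 5 bases of its window are in capitals.

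A peak named for the same member at the same place in both replicates was found on 7 of the 37 mRNAs (18.9%). They were RBM3, RBM10, RBM15B, RBM25, RBM27, RBM38 and RBM42. Over all protein-coding genes the share with such a shared peak (a strand-matched overlap of 1 bp or more) was 10.4%. RBM12 and RBM26 had peaks in replicate 1 only, and RBM4, RBM6, RBM8A, RBM19, RBM28 and RBM39 in replicate 2 only. The other 22 members had no peak in either table. In replicate 1, 9 members (24.3%) had a peak, against 15.9% of all protein-coding genes. In replicate 2, 13 members (35.1%) had one, against 17.3%. Of the 15 members with a peak in either table (40.5%, against 21.6% of all genes), 46.7% had a shared one, and over all genes with a peak that share was 48.2%. RBM members held peaks more often than the average annotated gene, and a member's peak was found again about as often as that of any gene. These differences were not tested, and expression, which sets whether a gene can carry a peak, was not measured.

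**Figure D1:**
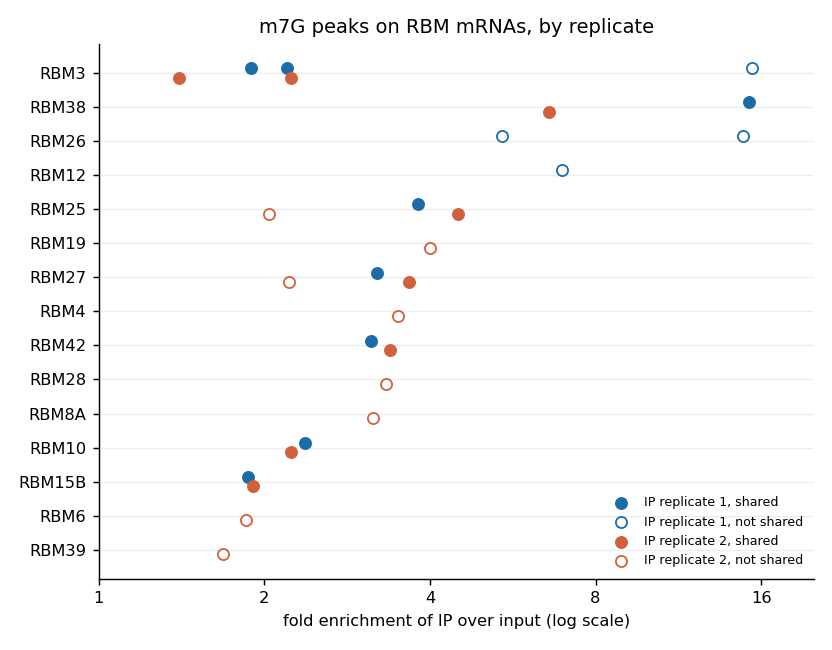
Fold enrichment of IP over input (log scale) of every peak on the 15 RBM mRNAs that had one, with IP replicate 1 in blue and IP replicate 2 in orange. Filled points are peaks found at the same place in both replicates and open points are not shared. RBM38 is the highest of the shared peaks in both replicates (15.2 and 6.58), and the open points at 14.8 (RBM26) and 15.4 (RBM3) have no counterpart in replicate 2.

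Adaptors of the exon junction complex and of nuclear RNA decay held peaks on 3 of 4 members, 1 of them shared. Over all protein-coding genes, 21.6% had a peak in either table and 10.4% a shared one. The groups by role given here and below are small, and their shares were not tested against these. RBM27 and RBM26 are related zinc finger proteins that work with the machinery handing polyadenylated nuclear RNA to the exosome. The shared RBM27 peak had 3.20-fold enrichment in replicate 1 and 3.67-fold in replicate 2. It lay on chromosome 5, plus strand, from 146203690 to 146203780 in replicate 1 and from 146203630 to 146203750 in replicate 2 (GRCh38), with 61 nt in common. Its p-values were 2.3e-05 and 2.9e-05, so it ranked low in both tables by significance, at 2922 of 4326 and 3409 of 4862. The peak began 85 and 25 nt past the annotated start. The span of the readthrough locus RBM27-POU4F3 also covers it. A second RBM27 peak, 26181 nt into the gene, was called in replicate 2 alone with 2.22-fold enrichment.

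RBM26 had a pair of peaks close to its start in replicate 1 and none in replicate 2. The one nearer the start, from 79406131 to 79406191 on chromosome 13 (minus strand), began 64 nt past the start and had 5.40-fold enrichment, with a p-value of 0.00056. The other, from 79405892 to 79406012, began 243 nt past the start and had 14.8-fold enrichment, with a p-value of 2e-05. The gap between them was 118 nt. The fold of 14.8 exceeded 92.0% of the folds of replicate 1, yet the peak was absent from replicate 2. RBM8A, the RNA-binding core of the exon junction complex also called Y14, had a single peak of 3.15-fold in replicate 2 in the middle of its gene, and none in replicate 1. The span of the transcribed pseudogene GNRHR2 also overlaps the RBM8A peak. RBM7, an adaptor of the nuclear exosome, had no peak.

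Spliceosomal and splicing members held peaks on 5 of 12, and 3 were shared. RBM25, a splicing regulator that associates with the U1 small nuclear ribonucleoprotein, carried the most significant peak of the family. Its fold was 3.81 in replicate 1 and 4.50 in replicate 2, and its p-values were 1e-108 and 1e-122. By significance it ranked 39 of 4326 peaks in replicate 1 and 37 of 4862 in replicate 2, while 43.8% and 64.9% of peaks had a lower fold. The peak was listed with the same 6 blocks in both replicates, on chromosome 14 from 73099722 to 73109356 (plus strand), with a joined length of 718 nt. Peaks of 6 or more blocks, a count chosen after the RBM25 peak had been seen, were 0.855% of replicate 1 and 0.864% of replicate 2. The longest RBM25 block, 287 nt, ran from 73103192 to 73103478. The peak lay far from the start, with its midpoint 47368 nt downstream, at 72.5% of the gene span. In replicate 2 a further peak of 180 nt and 2.04-fold enrichment followed 1486 nt downstream.

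RBM42, a splicing-associated protein, had 3.13-fold enrichment in replicate 1 and 3.38-fold in replicate 2, and p-values of 1.3e-12 and 2.6e-09. The peak had identical blocks in both replicates, on chromosome 19 from 35629016 to 35629520. Its first block covered 266 nt, crossing the start printed above, and its second block was 1 nt long, at 35629520. RBM10, whose loss causes TARP syndrome and which represses the inclusion of many exons, had 2.37- and 2.24-fold enrichment, and p-values of 1.2e-06 and 2e-05. Both of its peaks joined a block ending at 47145485 on chromosome X to a block starting at 47147357, so the same gap was skipped in each replicate. The first block began 236 nt past the start in replicate 1 and 147 nt in replicate 2. In replicate 1 a last block of 10 nt lay 24094 nt past the start. The annotated span of NDUFB11 also overlaps the RBM10 peak, but the peaks named for NDUFB11 lay on the other strand. In replicate 1 the span of the pseudogene ITPK1P1 overlaps it as well.

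RBM5 and RBM6 are the close relatives of RBM10. RBM6 had a single weak peak of 1.85-fold in replicate 2 near the far end of its span, at 89.0%, and RBM5 had none. RBM39, a relative of the splicing factor U2AF2 and the target of aryl sulfonamide degraders, had a peak of 1.68-fold in replicate 2 only. That peak was significant (p-value 7.9e-19, rank 565 of 4862), and no peak was listed for it in replicate 1. RBM17, RBM22, RBM23, RBM41, RBM48 and RBMX, which act at different steps of the splicing reaction, had no peak.

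**Figure D2:**
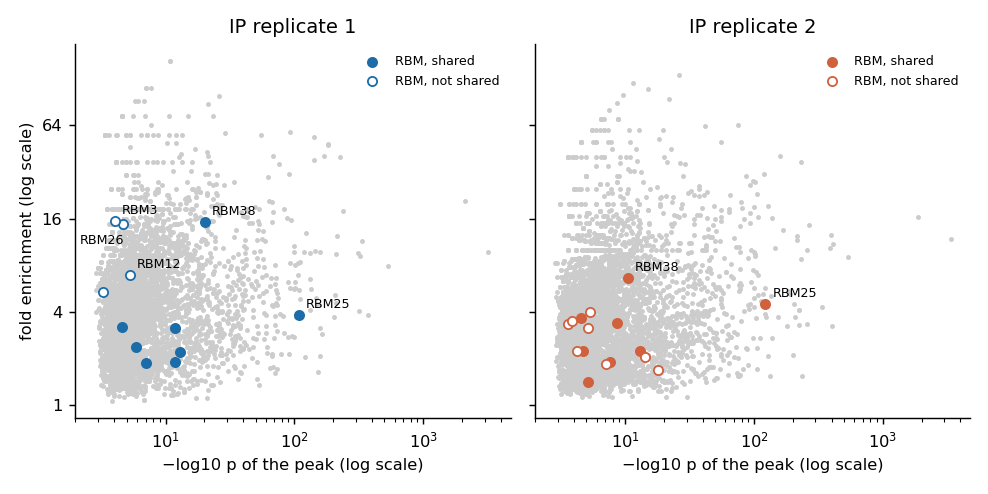
Fold enrichment (log scale) against −log10 p (log scale) of all peaks of each replicate in grey, with RBM peaks coloured, filled where shared and open where not. RBM25 stands at the right of both panels with a middling fold (3.81 and 4.50), while the RBM26 and RBM3 peaks near 15-fold in replicate 1 stand at the left.

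Regulators of splicing, stability and translation held peaks on 5 of 18 members (27.8%, against 21.6% of all protein-coding genes), 3 of them shared (16.7%, against 10.4%). RBM38, a p53 target that binds mRNAs such as that of p21 and alters their stability, had the highest fold of the shared peaks: 15.2 in replicate 1 and 6.58 in replicate 2. The peak covered the same 300 nt in both, on chromosome 20 from 57408971 to 57409270 (plus strand), and ended 63 nt before the annotated gene end. Its p-values were 7.9e-21 and 3.2e-11. The folds differed by 2.31 times (1.21 on the log2 scale), a wider gap than at 94.2% of all shared peaks. An end within 100 nt of the annotated gene end was seen at 2.89% of all shared peaks, and RBM38 was the one such member. That distance was looked at after the RBM38 peak had been seen.

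RBM3, which is induced by cold and favours translation, carried 2 shared peaks. The stronger, from 48577962 to 48578111 on chromosome X (plus strand), had 2.20- and 2.24-fold enrichment and p-values of 1e-13 and 7.9e-14. Its folds and its position were nearly the same in both replicates. The weaker had 1.89- and 1.40-fold enrichment. In replicate 1 it was listed as 3 blocks of 211 nt in all, and in replicate 2 as 2 blocks of 61 nt, which lay wholly within it. One further peak of 60 nt in replicate 1, 329 nt beyond the stronger one, had 15.4-fold enrichment with a p-value of 9.3e-05, and replicate 2 had none there. The highest fold on RBM3 was therefore a value of 1 library, and the shared peaks of this mRNA were among the weaker ones.

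RBM15B, a paralog of RBM15 in the machinery that directs N6-methyladenosine to mRNA, had 1.87- and 1.91-fold enrichment and p-values of 9.8e-08 and 2.2e-08. The peak lay on chromosome 3 from 51393092 to 51393241 in replicate 1 and from 51393122 to 51393241 in replicate 2, beginning 1807 and 1837 nt past the start. RBM4, a splicing and translation factor, had a peak in replicate 2 only, of 3.50-fold with a p-value of 0.00013. It joined 77 nt at the start to a block of 73 nt. The readthrough locus RBM14-RBM4 also covers it. The relatives RBM4B and RBM14 had none.

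RBM12 had a peak of 6.94-fold in replicate 1 (p-value 5.5e-06), from 35664836 to 35664956 on chromosome 20, minus strand. RBM12 shares its annotated start, 35664900, with CPNE1, which encodes the membrane-binding protein copine. In replicate 1 a 2-block peak named for CPNE1, also of 6.94-fold, covered the whole RBM12 peak. In replicate 2 a peak named for CPNE1 from 35664806 to 35664926 overlapped the RBM12 peak by 91 nt, with 4.55-fold enrichment (p-value 0.00028). The place was thus enriched in both replicates, and the tables do not settle which mRNA it belongs to. With overlaps counted whatever the gene name, a setting chosen after the tables were seen, 8 of 37 members (21.6%) had a peak shared between replicates, against 10.5% of all protein-coding genes.

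The members of this group without a peak included several known for tissue-restricted roles. Among them were RBM20, which controls titin splicing in the heart, RBM24 of muscle, RBM46 of the germ line, RBM47, a cofactor of RNA editing, and RBM11. RBM12B, RBM18, RBM33, RBM43, RBM44 and RBM45 had none either. Whether any of these genes was expressed in these cells was not measured.

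Of 3 nucleolar members, 2 had a peak, in replicate 2 only. RBM19, which acts in the processing of ribosomal RNA precursors, had 4-fold enrichment (p-value 4.7e-06) in blocks of 116 and 34 nt on chromosome 12. RBM28, a nucleolar protein of ribosome assembly, had 3.33-fold (p-value 0.00025) in blocks of 33 and 58 nt on chromosome 7. RBM34 had no peak. None of the 3 had a shared peak, and 3 genes are too few to set against the 10.4% of all protein-coding genes.

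High folds were not confined to the peaks that recurred. The 4 member peaks of replicate 1 with no counterpart under the same name, on RBM26, RBM3 and RBM12, had folds from 5.40 to 15.4 (median 10.87). The 8 shared ones had folds from 1.87 to 15.2 (median 2.75). Exactly the RBM3 values, 15.4-fold with a log10 p of -4.03, were also listed in replicate 1 for LOR, FLG and PIKFYVE. Read counts behind such folds are not given, so a high fold alone is no measure of strong enrichment. In replicate 2 the 8 unshared peaks had folds from 1.68 to 4 (median 2.685) and the shared ones from 1.40 to 6.58 (median 2.81). By significance the pattern was different: in replicate 1 all 5 member peaks in the most significant 20% of the table were shared, and neither of the 2 in the least significant 20% was. In replicate 2 the counts were 2 of 4 and 0 of 2. Over all peaks, 97.3% of the most significant 20% were shared in replicate 1 and 91.8% in replicate 2, and 26.6% and 22.3% of the least significant. The pair in the most significant 20% of replicate 2 that was not shared lay on RBM25 and RBM39.

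Where members' peaks were shared, their folds were close. The median absolute difference between replicates over the 8 shared peaks was 0.15 on the log2 scale, and RBM38 was the widest. Over all shared peaks of protein-coding genes the median was 0.30. The HNRNP and SRSF genes, RNA-binding families compared below, had medians of 0.18 over 27 shared peaks and 0.099 over 8. Close folds were therefore not particular to the RBM members. Identical blocks were listed in both replicates for 4 of the 8, those of RBM25, RBM42, RBM38 and the stronger RBM3 peak. The share over all 2639 shared peaks was 10.2%. This measure was chosen after the members' peaks had been seen, so the 4 of 8 reflects that choice. The folds themselves were modest. Taking the lower fold of both replicates at each gene's strongest shared peak, the 7 members had a median of 3.13 (range 1.87 to 6.58) and all protein-coding genes with a shared peak 3.96 (interquartile range 2.46 to 6.37). Both folds were 4 or more on 1 member, RBM38, which is 2.70% of the 37. Over all protein-coding genes this held for 5.15%. The members' higher share was thus not seen at that fold, and 1 gene is too few to place them below the average gene.

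**Figure D3:**
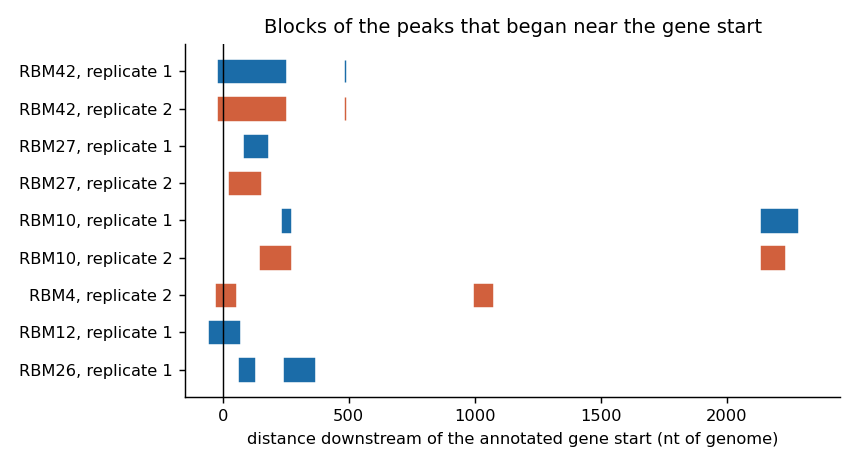
Blocks of the peaks that began within 500 nt of the annotated gene start on 6 RBM mRNAs, drawn to scale by distance from that start in nt of genome, with IP replicate 1 in blue and IP replicate 2 in orange. RBM42, RBM4 and RBM12 cross the start (vertical line), RBM10 joins a block near the start to one beyond 2136 nt in both replicates, the 1-nt second block of RBM42 is drawn as a line, and the last RBM10 block, at 24094 nt, lies outside the axis.

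Along the gene, members' peaks fell into those at the start and those elsewhere. A peak whose first base lay within 500 nt of the annotated start was found on 6 of the 15 members with a peak, namely RBM4, RBM10, RBM12, RBM26, RBM27 and RBM42. Over all protein-coding genes with a peak the share was 48.3%. By the midpoint of the joined blocks, 2 of the 8 shared peaks (25%), those of RBM27 and RBM42, lay within 200 nt of the start, against 22.6% of all shared peaks. By the nearest block edge the count was 3, with RBM10, whose peak began 236 nt past the start in replicate 1 and 147 nt in replicate 2. The share over all shared peaks is not given for that edge. The shared peaks of RBM3, RBM15B, RBM25 and RBM38 lay at least 1159 nt from it. Distances are genomic and include introns. Transcript models were not used here, so exons and untranslated regions are not assigned and whether a peak within the gene lies at a further start site was not tested. More than 1 block was listed for 4 of 12 member peaks in replicate 1 (33.3%, against 30.8% of all peaks) and for 9 of 16 in replicate 2 (56.3%, against 34.7%).

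The RefSeq promoter table, which spans 250 bases before to 50 bases after a start, held 33 of the 37 members. The median GC content of the window was 58.5% for the 6 members with a start peak, 61.3% for the 8 others with a peak and 64.7% for the 19 without one, against 62.7% over 15843 protein-coding genes. The sequences of RBM4 and RBM12 printed above both hold GCCATTTT under the peak. This match led to a search of either strand of the windows for GCCATNTT, which contains the core bound by the transcription factor YY1. The letters were chosen after the windows of the members with a peak had been seen, so their presence in 7 of those 14 windows (RBM4, RBM8A, RBM12, RBM15B, RBM19, RBM25 and RBM26) reflects that choice and is not set against other genes. Of the 19 members without a peak, whose windows were not used for the choice, 3 held them (RBM5, RBM23 and RBM33, 15.8%). Among protein-coding genes whose RefSeq symbol named no peak, 7.26% of the windows did. Genes whose peaks were listed under an older name are counted among these. Over all 15843 protein-coding windows the share was 7.92%. These are matches of letters and were not tested.

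Partners of the RBM proteins were then counted from a list of 35 genes of the exon junction complex, the nuclear exosome adaptors and the spliceosome, together with ALKBH5, a demethylase of N6-methyladenosine that binds RBM33. A shared peak was present on 12 of them (34.3%, against 10.4% of all protein-coding genes). Their median lower fold was 3.99, near the 3.96 of all protein-coding genes with a shared peak. The difference in share was not tested, and expression of the partners was not measured. The highest were ZFC3H1, the scaffold that links polyadenylated nuclear RNA to the exosome (8.54 and 25), ACIN1 of the exon junction periphery (8.33 and 9.46), U2AF2, which binds the polypyrimidine tract (7.96 and 10), ZC3H18, a bridge from the cap-binding complex to RNA decay (6.17 and 7.07), and SNRNP70 of the U1 particle (8.41 and 5.95). Some direct partners had no peak, such as MAGOH and EIF4A3 of the complex that holds RBM8A. ZCCHC8 and MTREX had none, and neither did RBM7, which works in the same complex.

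The other named families of RNA-binding proteins held shared peaks on a larger share of their genes. Of 26 genes whose symbol begins with HNRNP, 17 (65.4%) had one, and of 12 beginning with SRSF, 7 (58.3%), against 10.4% of all protein-coding genes. Their median lower folds were 3.10 and 1.97, near and below the 3.13 of the RBM members. Among genes that had any peak, a shared one was present on 94.4% of the HNRNP genes, 70.0% of the SRSF genes and 46.7% of the RBM members. Over all protein-coding genes with a peak this share was 48.2%. RBM38 (6.58) lay below the highest of the HNRNP genes, HNRNPUL2 (14.4), and beside the highest of the SRSF genes, SRSF10 (6.17), by the lower fold. These differences between families were not tested, and their expression was not measured.

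**Figure D4:**
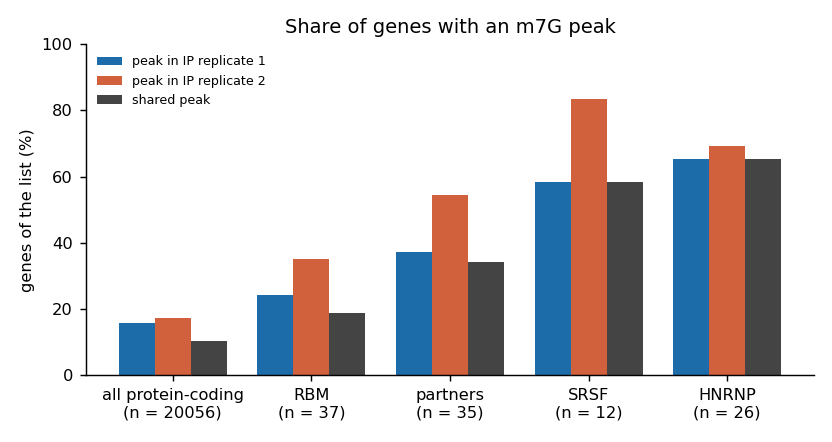
Share of genes (%) with an m7G peak in IP replicate 1 (blue), in IP replicate 2 (orange) and at the same place in both (grey), for all protein-coding genes, the RBM members, their partners and the SRSF and HNRNP genes. Shared peaks covered 18.9% of RBM members, above the 10.4% of all genes and below the 34.3%, 58.3% and 65.4% of the other lists.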

How the data were processed

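Anti-m7G IP and input libraries of U2OS poly(A) RNA were made with a stranded mRNA kit, per the labels' protocols. The submitters' processing notes name STAR and GRCh38. The caller of the peaks and the scaling of the fold are not stated there, in the labels or in the file headers. The authors deposited 1 peak table for each of the 2 IP replicates, so peaks were not called on pooled libraries, and the 2 inputs enter only through those calls. Per the file headers, each deposited peak has a fold enrichment, which was read here as a linear ratio of IP over input. Each deposited peak also has a p-value, and its log10 and that of the false discovery rate were treated as a score. The weakest false discovery rate was 0.0490 and 0.0479, so nothing below that threshold is listed. Read counts are not in the tables, so the depth is unknown and no interval was set.

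Here, peaks were compared by their blocks on the same strand, mutually best overlaps of at least 1 bp with the same gene name were called shared, and names were matched to RefSeq genes of GRCh38.p14 within 2000 nt (99.6% of peaks in each table). The 2 readthrough loci were not counted as members. Every member with a peak is named, and partners by the 5 highest lower folds. The members and lists were chosen with earlier results of these data known. No set test was run. The overlap search was tried on simulated data in which unshared peaks were moved far from every real peak. That checks the search itself and not how often peaks overlap by chance. Alternatives were other overlaps, stricter peaks, each replicate alone, other summaries of the fold, other distances and other counts of members. Coordinates are 1-based. Scripts ran in Python 3.11.15 (pandas 2.3.3, numpy 2.4.6, matplotlib 3.10.9).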

Additional observations from a re-analysis of the deposited data

How the results depend on the processing

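Of the 7 members with a shared peak, 7 were found with 50% reciprocal overlap and 6 with midpoints within 100 nt (RBM10 was lost). The more significant 50% of each table held 5 (RBM10 and RBM27 were lost). Over all protein-coding genes the shares at these settings were 8.64%, 9.44% and 6.28%, in that order. The share of the 37 members stayed above that of all genes in each, a difference that was not tested. Requiring both folds to be 4 or more left 1, RBM38: 2.70% of members and 5.15% of all protein-coding genes passed, in place of 18.9% and 10.4%. The members' higher share was not kept there, and with 1 member left the order of the shares is not settled. With each replicate left out in turn, 9 to 13 members had a peak, and the median fold was 3.33 to 3.81 in place of 3.13; without replicate 1 the 13 include the 6 members seen in replicate 2 alone. Over all shared peaks of the members the median was 2.685. A fold of at least 4 left 4 of 9 members in replicate 1 and 3 of 13 in replicate 2, where the more significant 50% left 7. Shared peaks near the gene start were 1, of RBM42, in the more significant 50%, and 3 to 4 peaks were near it with a replicate left out, in place of 2. Each remaining alternative to these results stayed within 1.5 times the count or within the spread between replicates, such as leaving out RBM15B, which gave 6 members. No paired analysis was possible because the inputs enter only through the authors' calls and both IP tables belong to 1 group. Depth limits these results in a way the tables do not show, since a peak absent from a table may be one that missed the threshold.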

Other observations

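RNA-binding motif genes outside the rule were read from the same tables. RBMS1, a protein that binds single-stranded DNA and RNA, had a shared peak of 12.3-fold in replicate 1 and 15.0-fold in replicate 2, above every shared peak of the RBM members in replicate 2 and below that of RBM38 (15.2) in replicate 1. Its relatives RBMS2 and RBMS3 had no peak. RBM15, RBMX2 and RBMXL1 had none either.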
